A study of Mus musculus with 10 samples.

Results

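The tibialis anterior (TA) and the gastrocnemius are both fast muscles of the mouse leg, and they are compared here in their control state. The arrays were chosen by title alone, as 2 arrays of control TA and 3 of control gastrocnemius, 5 of the 10 arrays in the series. Their RNA was read on Affymetrix Mouse Gene 1.0 ST arrays. On these a probe set, or several short probes together, gives the signal of a gene. All mice were labelled C56BL6N and 8 weeks old. The methods use that age for the day of electroporation, so the TA mice may have been older than labelled when sampled. The control TA arrays came from muscles electroporated with 10 µg of control vector, from which fluorescent fibers were dissected 2 weeks later. In the methods, such experiments have a hairpin RNA against LacZ in the contralateral TA as their control, with several muscles of different mice per condition. The control gastrocnemius arrays came from whole muscle of mice labelled wild type, with no further genotype stated. The other arrays, called the treated arrays here, were 2 of TA fibers with a hairpin against linc-MYH and 3 of gastrocnemius that were not controls, and they serve below only as a second set of TA and gastrocnemius arrays.

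Limb muscles of the mouse are mosaics of slow fibers, which contract on the slow myosin heavy chain and rely on oxidation, and of fast fibers, which express the fast myosins and rely more on glycolysis. The gastrocnemius is built of several compartments, with slow and oxidative fibers in its deep part, whereas the TA is almost wholly fast. A whole muscle also holds tendon and aponeurosis, nerve, vessels, fat and connective tissue, of which dissected fibers may carry less. Muscle, electroporation, dissection and any difference in age, RNA preparation or array normalization divide the 5 arrays in the same manner, and their effects cannot be told apart. In bulk RNA, fewer cells of a type and less RNA per cell cannot be told apart either.

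The 2 tissues had different signal distributions. The median log2 signal over probe sets was 5.14 and 5.11 on the control TA arrays and between 6.60 and 6.62 on the control gastrocnemius arrays. Signals were therefore compared by rank within each array. The percentile of a gene is its rank among the 19938 genes of that array, with 100 for the brightest. Differences are given as control TA minus control gastrocnemius on rank-matched log2 signals, in which the gene at a given rank took the mean signal of that rank over the 5 arrays, so 1 unit is a 2-fold difference. Rank correlation over genes (Spearman's rho, with genes that are not independent replicates) was 0.987 between the 2 control TA arrays, 0.994 to 0.996 within control gastrocnemius and 0.913 to 0.918 between the muscles.

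By limma with Benjamini-Hochberg adjustment over all genes, 6278 genes were higher in control TA and 6413 were lower, which is 31.5% and 32.2% of the genes tested. These shares are the background for every list below. Overlap between the muscles was not counted over all genes. Some genes that were not called, such as Pvalb and Myh4, had none, so separation of the arrays alone marks no gene below. Ranks set the sum of all differences to about 0, so differences in both directions were built into this scale, although not the exact counts. Without this scale, on the deposited signals, 249 genes were higher and 19217 lower, and the median gene lay at -1.56. Of the genes called, 1669 were higher by at least 2-fold and 1739 lower by at least 2-fold, or 8.37% and 8.72% of all genes. On the treated arrays of both muscles, 5280 of the 6278 genes were again called higher in TA (84.1% of the calls in controls and 83.3% of the 6339 calls in those arrays, which were 31.8% of all genes). Likewise 5393 of the 6413 were again called lower (84.1%, and 83.1% of the 6492 calls, which were 32.6% of all genes). Only 27 genes were called in opposite directions. Those arrays share the division by electroporation and dissection with the controls. By the methods the control plasmid went into the contralateral TA, so the treated TA arrays may also come from the same mice as the control ones.

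Genes of the sex chromosomes divided the control gastrocnemius arrays. Xist, the RNA that silences an X chromosome in female cells, stood at percentile 13.5 and 12.8 on the TA arrays but at 98.1, 92.6 and 17.5 on gastrocnemius arrays 1, 2 and 3. The Y-linked Eif2s3y was at 90.6 and 88.5 in TA and at 1.0, 1.1 and 86.2 in gastrocnemius. Gastrocnemius array 3 was thus like the TA arrays in these genes, and arrays 1 and 2 were unlike them. The labels give no sex. When array 3 alone represented gastrocnemius, 3205 genes were called higher and 3330 lower (16.1% and 16.7%), with a lone array assumed to vary like the TA pair. Every list described below with a median of 0.1 or more in size kept the sign of its median in that comparison, except the satellite cell list, and values against array 3 alone are given where the log2 difference of a called gene moved by more than 1.5 times.

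Slow fiber genes were mostly lower in control TA. Myh7, the slow myosin heavy chain, stood at percentile 58.6 and 42.3 on the TA arrays and at 98.0, 96.8 and 97.8 on the gastrocnemius arrays. Its rank-matched signal was 19.6-fold lower in TA (log2 difference -4.29 ± 0.26, where ± gives the standard error here and below, adjusted p = 1.9e-05 by limma, n = 2 and 3). Of the 18 slow sarcomere and calcium-handling genes measured, 11 were called lower and 4 higher, with a median of -0.66 against -0.01 for all genes.

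Tnni1, the slow troponin I, was at percentile 69.2 and 66.2 in TA and at 91.9, 88.5 and 91.7 in gastrocnemius (-1.87 ± 0.15). Atp2a2, the slow and cardiac calcium pump of the sarcoplasmic reticulum, was lower by the same amount (-1.87 ± 0.17). Myl3, the slow ventricular light chain, differed less (-0.78 ± 0.11). No TA array overlapped the gastrocnemius arrays in these genes.

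The other slow troponins separated the TA arrays from each other. Tnnc1, slow troponin C, was at percentile 91.9 on TA array 1 and at 60.4 on TA array 2, against 95.9, 93.3 and 95.7 in gastrocnemius. Its difference of -1.79 passed the test (adjusted p = 0.0396 by limma), but it was -0.57 without TA array 2 and -3.03 without TA array 1, and the call was lost when any array except TA array 1 was left out. Tnnt1, slow troponin T, was at 91.5 and 65.6 in TA and at 94.2, 90.7 and 94.3 in gastrocnemius, so that the groups overlapped. Its difference of -1.32 ± 0.55 did not pass (adjusted p = 0.0708 by limma).

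A pair of small inhibitors of the calcium pump went the other way from the pump itself. Pln, phospholamban, stood at percentile 94.6 and 93.6 in TA and at 55.2, 56.1 and 50.2 in gastrocnemius, an 8.91-fold higher rank-matched signal in TA (3.16 ± 0.12, adjusted p = 4.9e-06 by limma). Sln, sarcolipin, was at 63.7 and 57.7 in TA and at 43.9, 35.8 and 31.7 in gastrocnemius (1.21 ± 0.19). For Pln the gap between the muscles was several times wider than the spread within either.

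**Figure D1:**
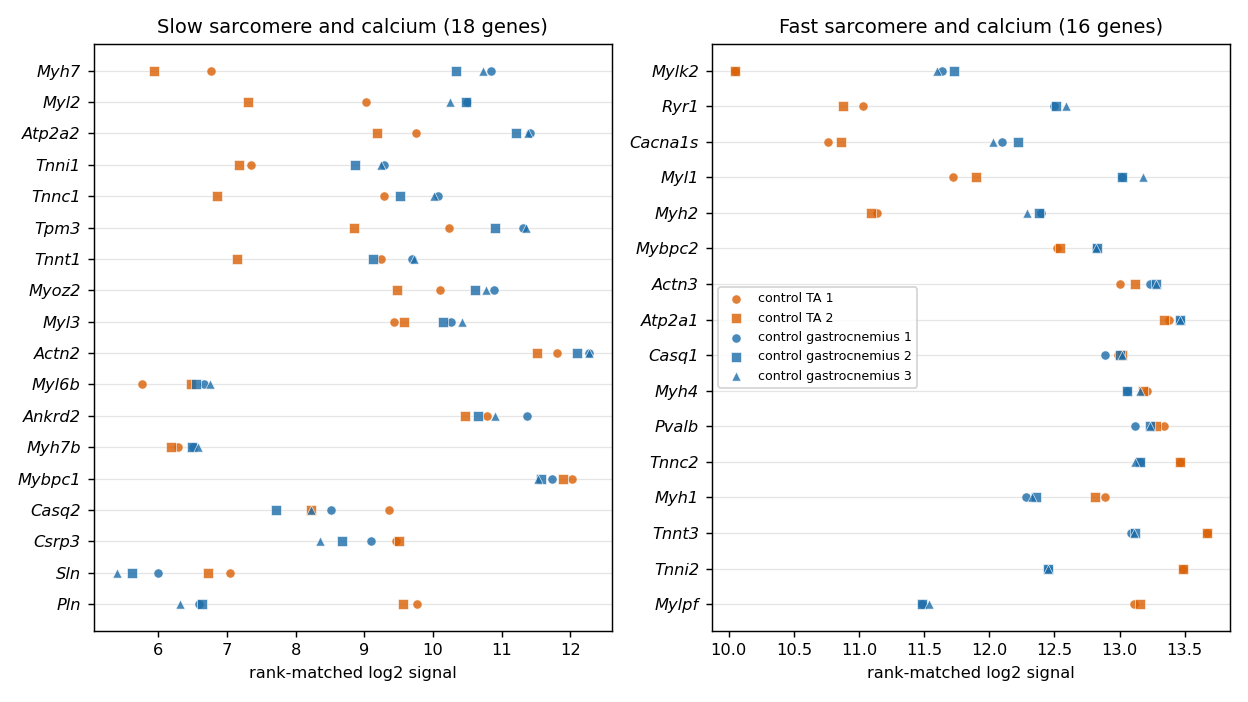
Rank-matched log2 signal (x axis) of the 18 slow and 16 fast sarcomere and calcium-handling genes (y axis, sorted by difference) on each of the 5 control arrays, 1 point per array. Myh7 (difference -4.29) and Pln (3.16) have the widest gaps on the left, and on the right Myh4 and Atp2a1 lie together in both muscles while Mylk2, Ryr1 and Cacna1s lie lower in TA.

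The fast genes did not move as a group. Of 16 measured, 5 were higher and 6 lower, with a median of -0.03, which became 0.29 when arrays were centred on their medians (all genes 0.12). Myh4, the myosin of the fastest fibers, was at percentile 99.9 or above on all 5 arrays, and its difference of 0.10 ± 0.08 did not pass the test (adjusted p = 0.287 by limma). At such ranks the array may be near its ceiling, and a difference can be understated. Myh1, the next fast myosin, was higher in TA (0.52 ± 0.08), and Myh2, the myosin of fast oxidative fibers, was lower, at percentile 98.5 and 98.5 against 99.7, 99.7 and 99.6 (-1.24 ± 0.08).

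The fast troponins Tnni2, Tnnt3 and Tnnc2 were higher in TA. Tnni2, fast troponin I, differed by 1.04 ± 0.07, Tnnt3 by 0.57 ± 0.07 and Tnnc2 by 0.32 ± 0.07, all called. Mylpf, the fast regulatory light chain, was at percentile 99.9 and 99.9 in TA and at 98.9, 98.9 and 99.0 in gastrocnemius (1.63 ± 0.08, adjusted p = 8.8e-06 by limma).

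Ryr1, Cacna1s and Mylk2 of the same list were lower in TA. Ryr1, the calcium release channel, was at 98.4 and 98.1 in TA and at 99.7, 99.7 and 99.8 in gastrocnemius (-1.57 ± 0.09). Cacna1s, the voltage sensor that opens it, differed by -1.30 ± 0.09. Mylk2, the skeletal myosin light chain kinase, differed by -1.61 ± 0.08. Atp2a1, the fast calcium pump (-0.10 ± 0.07), and Pvalb, the calcium buffer parvalbumin (0.12 ± 0.08), did not pass the test. On the scale of percentiles itself, where the brightest genes are pressed together, the differences of Ryr1, Cacna1s, Myh2, Mylpf and Tnni2 did not pass either. Tnnt3 and Tnnc2 (mean percentile 100.0 in TA and 99.9 in gastrocnemius) and Myh1 (99.9 and 99.7) lay closer still on that scale.

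Structural genes of all muscle fibers stood at the top of both muscles. The 14 general muscle genes had a median percentile of 99.9 on each of the 5 arrays, so both tissues carried the RNA of skeletal muscle that their labels name. Of these, 6 were lower and 1 was higher. Des, the intermediate filament desmin, was at 98.8 and 98.6 in TA and at 99.7 on each gastrocnemius array (-1.13 ± 0.09). Aldoa, the muscle aldolase, differed by -0.02 ± 0.08, and Actb, cytoplasmic actin, was lower in TA (-1.06 ± 0.11).

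Of 8 isoforms of developing muscle, 4 were higher in TA fibers and 2 were lower. Myh8, the perinatal myosin, was at percentile 84.3 and 77.9 in TA and at 68.6, 67.0 and 68.3 in gastrocnemius (0.90 ± 0.15). Myh3, the embryonic myosin, was at 63.4 and 56.0 against 51.1, 37.3 and 48.5 (0.73 ± 0.22), and its call was lost without TA array 1. Tnnt2, cardiac and embryonic troponin T, differed by 1.46 ± 0.36, or 0.79 without TA array 1. Ankrd1, a stretch- and injury-responsive repressor, was at 92.9 and 90.9 in TA and at 77.6, 58.8 and 72.0 in gastrocnemius (1.91 ± 0.30). Actc1, cardiac actin, was higher by 0.33 ± 0.09 and Myh10, a nonmuscle myosin, lower (-0.75 ± 0.09), although on the treated arrays Myh10 was higher in TA (0.57). The other lower isoform was Myl4 (-1.16 ± 0.35), named here after its value was seen. It was at percentile 91.9 and 79.4 in TA and at 96.2, 94.1 and 93.9 in gastrocnemius.

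Regulators of fiber type were predominantly lower in TA fibers, 13 of 22 against 2 higher, with a median of -0.44. Ppard, the nuclear receptor that drives oxidative metabolism in muscle, stood at percentile 70.8 and 71.3 in TA and at 94.5, 94.2 and 93.9 in gastrocnemius (-2.23 ± 0.08, adjusted p = 4.6e-06 by limma). Tbx15, a T-box factor of glycolytic fibers, was at 88.0 and 85.0 against 97.7, 97.9 and 97.9 (-2.12 ± 0.11). Esrra, a partner of the mitochondrial program, differed by -0.95 ± 0.10.

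The homeodomain factors Six4, Six2 and Six5 were lower in TA as well. Six4 was at percentile 58.1 and 60.5 in TA and at 80.0, 81.9 and 79.0 in gastrocnemius (-1.30 ± 0.10), Six2 differed by -1.28 ± 0.17 and Six5 by -0.45 ± 0.10. Sox6, a repressor of slow genes, differed by -0.66 ± 0.09, and Hdac4, a deacetylase that represses Mef2 targets, by -1.29 ± 0.19. Of the imprinted genes that the study names, Zdbf2 was higher in TA (1.24 ± 0.14) and Peg10 lower (-0.36 ± 0.12), the latter call being lost without TA array 2, gastrocnemius array 1 or gastrocnemius array 2, with -0.22 without TA array 2 and against gastrocnemius array 3 alone. On the treated arrays Peg10 was higher in TA (1.18).

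Tendon genes gave the widest separation of any marker list. Of 10 measured, 8 were lower in TA and 1 higher, with a median of -1.56, and the list's median percentile was 43.7 and 54.4 on the TA arrays against 70.4, 75.5 and 74.5 on the gastrocnemius arrays. Fmod, fibromodulin, which shapes tendon collagen fibrils, stood at percentile 49.8 and 63.5 in TA and at 98.7, 98.9 and 98.4 in gastrocnemius (-4.59 ± 0.21, adjusted p = 8.3e-06 by limma). Chad, the cartilage and tendon leucine-rich protein chondroadherin, was at 32.9 and 39.7 against 94.5, 94.7 and 92.3 (-4.00 ± 0.17).

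Thbs4, Cilp2 and Comp, matrix proteins of tendon and cartilage, were also lower in TA, with differences of -1.56 ± 0.10, -1.27 ± 0.09 and -1.65 ± 0.15. Scx, the transcription factor that specifies tendon cells, was the member that was higher (0.57 ± 0.09), and it is named here after its value was seen.

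The matrix, fat, nerve and vessel lists held more lower than higher genes, with medians nearer to 0. Of 19 fibroblast and matrix genes, 10 were lower and 2 higher (median -0.37), although their median percentile was 80.5 or more on every array, so the TA fibers still carried abundant matrix RNA. Col1a1, the main chain of type I collagen, was at percentile 83.2 and 80.6 in TA and at 95.6, 96.5 and 98.2 in gastrocnemius (-2.17 ± 0.26). The proteoglycans Bgn and Dcn differed by -2.03 ± 0.22 and -1.33 ± 0.09, and Fn1, fibronectin, by -1.64 ± 0.15. Thy1, a surface glycoprotein of fibroblasts and T cells, was higher in TA (1.04 ± 0.10).

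Fat cell genes were lower in 8 of 11 cases and higher in 1 (median -0.53). Retn, the adipocyte hormone resistin, was at 50.1 and 47.6 in TA and at 88.6, 88.4 and 78.2 in gastrocnemius (-2.30 ± 0.27), and Plin4, a lipid droplet coat protein, differed by -1.46 ± 0.21. Car3, carbonic anhydrase of fat and slow fibers, was lower by a smaller amount (-0.53 ± 0.08), and Pck1, an enzyme of glyceroneogenesis, differed by -0.91 ± 0.22, its call being lost without TA array 1. Fabp4, the fatty acid carrier of adipocytes and capillary endothelium, was instead higher in TA (1.15 ± 0.14).

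Among 11 genes of Schwann cells and nerve, 6 were lower and 3 higher (median -0.60). The myelin genes Mbp and Cnp differed by -1.33 ± 0.21 and -1.14 ± 0.12, the Schwann cell genes Ncmap and S100b by -0.82 ± 0.09 and -0.60 ± 0.10, and Nefm, a neurofilament dim on all arrays, by 1.07 ± 0.11.

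Neuromuscular junction genes were lower in 9 of 13 cases and higher in 1 (median -0.49). Ache, the acetylcholinesterase of the synaptic cleft, was at 66.3 and 64.8 in TA and at 80.0, 82.3 and 86.1 in gastrocnemius (-1.17 ± 0.15). Agrn, the nerve signal that clusters receptors, differed by -1.02 ± 0.10, Colq, which anchors the esterase, by -0.49 ± 0.10 and Chrne, the adult receptor subunit, by -0.56 ± 0.10. Chrnd, the delta subunit, was the higher one (0.45 ± 0.08). Muscle spindle genes were lower in 5 of 7 and higher in 1. Among the lower were Myh6, a myosin of intrafusal fibers (-1.43 ± 0.14), and Etv1, a factor of spindle fibers (-0.88 ± 0.13). Egr3 was the spindle gene that was higher (0.45 ± 0.12), and it is named here after its value was seen.

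Vessel genes were lower in 6 of 14 endothelial and 6 of 12 smooth muscle and pericyte markers, with 1 higher in each and 7 of the endothelial markers not called. The endothelial median was -0.29, or -0.18 without TA array 2 and -0.46 without TA array 1. Eng, endoglin of endothelial cells, was at 73.7 and 64.9 in TA and at 90.1, 90.7 and 90.2 in gastrocnemius (-1.71 ± 0.15). Tie1, Esam, Cldn5 and Egfl7, all genes of endothelial surface or junctions, differed by between -1.16 and -0.54. Other endothelial markers are named after their values were seen. Kdr was the higher one (0.46 ± 0.16, or 0.14 against gastrocnemius array 3 alone). Pecam1 (0.25 ± 0.16), Flt1 (0.12 ± 0.13) and Cdh5 (0.11 ± 0.19) were among those not called. Pdgfrb, the receptor of pericytes, differed by -1.61 ± 0.18, and Rgs5, another pericyte gene, was higher in TA (1.03 ± 0.15).

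**Figure D2:**
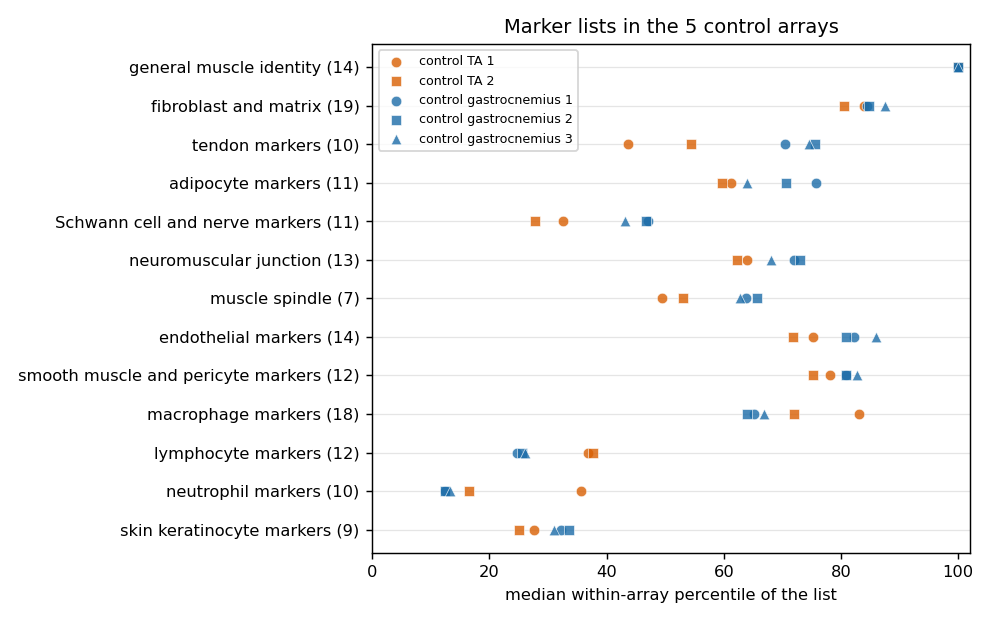
Median within-array percentile (x axis) of each marker list (y axis, number of genes measured in brackets) on the 5 control arrays, 1 point per array. Tendon, nerve and spindle lists lie lower on both TA arrays, macrophage and lymphocyte lists lie higher, and the neutrophil list is at 35.6 on TA array 1 but at 16.5 on TA array 2.

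The interferon, nucleic acid sensor, macrophage and lymphocyte lists held more higher than lower genes in TA fibers, and the antigen presentation list did not. Of 16 interferon response genes, 11 were higher by limma and 0 lower, with a median of 0.97, against 31.5% and 32.2% of all genes. None was lower at an unadjusted p under 0.05, and the methods' t-test called 6 higher and 0 lower. Interferons released by cells that sense foreign nucleic acid switch on this set through factors that bind GAAA repeats set close together, the interferon-stimulated response element. Reference promoters are shown for a pair of the most separated members, Ifit3 and Oas1a, as a view of the sequence from which these RNAs start. They are RefSeq sequence of GRCm38.p6, 100 bases read along the gene's strand, with capitals marking GAAA repeats 2 bases apart, which read as TTTC repeats where the match is on the other strand.
Ifit3: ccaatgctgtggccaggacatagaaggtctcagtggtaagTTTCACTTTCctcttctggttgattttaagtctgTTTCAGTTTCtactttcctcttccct
Oas1a: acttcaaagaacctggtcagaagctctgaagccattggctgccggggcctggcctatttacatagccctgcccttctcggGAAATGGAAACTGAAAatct
The Ifit3 stretch lies at chr19:34583333-34583432 on the plus strand, from 196 to 97 bases before the start of the gene, and holds 2 matches. The Oas1a stretch lies at chr5:120907526-120907625 on the minus strand, ends at the base before the start, and holds 2 overlapping matches. Among promoters of 300 bases (250 before and 50 after the start), 1131 of 32851 held the motif, or 3.44%. Of the 16 interferon genes, 12 had a promoter in the table and 6 of these held a match. Among the genes with a match, Ifit3, Oas1a and Rsad2 were higher in TA, whereas Bst2, Ifit1 and Stat2 were not called. A match describes letters and not binding.

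Ifit3, an interferon-induced RNA-binding protein, stood at percentile 95.4 and 96.5 in TA and at 62.8, 81.8 and 73.7 in gastrocnemius (2.49 ± 0.32, adjusted p = 0.00052 by limma). Ifi27l2a, an interferon-induced membrane protein, was at 88.5 and 88.4 against 54.4, 49.9 and 54.0 (2.39 ± 0.10). Oas1a, which makes the activator of RNase L, was at 63.6 and 61.0 against 40.6, 37.5 and 37.6 (1.22 ± 0.09). No gastrocnemius array reached a TA array in any of these. Psmb8, an immunoproteasome subunit, differed by 1.49 ± 0.20, and Mx1, an antiviral GTPase, by 0.98 ± 0.08, although it stood only at percentile 32.0 and 30.3 in TA.

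Sensors of cytosolic DNA and RNA were higher in 6 of 11 cases and lower in 1. Ifih1, a sensor of double-stranded RNA, was at percentile 84.1 and 81.5 in TA and at 53.9, 62.7 and 62.0 in gastrocnemius (1.49 ± 0.16). Zbp1, a sensor of Z-form nucleic acid, differed by 1.26 ± 0.23 and the kinase Tbk1 by 0.60 ± 0.09. The lower member was Ifi205 (-1.20 ± 0.14), which was also lower in TA on the treated arrays (-1.05). Cxcl10, an interferon-induced chemokine, was at 48.6 and 75.2 against 21.5, 28.8 and 24.8 (1.95 ± 0.39, or 1.25 without TA array 2).

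Of 18 macrophage markers, 9 were higher, 3 lower and 6 not called, with a median of 0.60. This median was 0.24 without TA array 1 and 1.04 without TA array 2, and the list's median percentile was 83.0 and 71.9 on TA arrays 1 and 2 against 65.1, 63.9 and 66.9 in gastrocnemius. Ctss, the lysosomal protease cathepsin S, was at percentile 97.8 and 92.7 in TA and at 65.2, 65.5 and 66.4 in gastrocnemius (2.93 ± 0.34). Tyrobp, a myeloid signaling adaptor, was at 96.8 and 90.5 against 67.7, 63.5 and 67.9 (2.55 ± 0.32). Mpeg1, Fcgr1 and C1qa, a pore protein, an antibody receptor and a complement chain of macrophages, differed by 2.18 ± 0.22, 1.79 ± 0.14 and 1.14 ± 0.11.

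The 3 lower macrophage markers, named here after their values were seen, were Csf1r, the receptor that sustains macrophages (-0.77 ± 0.14), C1qb (-0.77 ± 0.16) and Lyz1 (-1.15 ± 0.31). Without TA array 2 the difference was -0.49 for C1qb and -0.57 for Lyz1, and without TA array 1 it was -1.78 for Lyz1. On the treated arrays, the macrophage median was -0.00, with 6 markers higher and 3 lower, while that of the interferon genes was 1.25.

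Lymphocyte markers were higher in 8 of 12 cases and lower in 1 (median 0.78), from low ranks. Cd3g, a chain of the T cell receptor complex, was at percentile 42.0 and 52.9 in TA and at 11.1, 14.4 and 16.0 in gastrocnemius (1.86 ± 0.18). Cd2 differed by 1.19 ± 0.14, Ptprcap by 1.09 ± 0.08, Cd3e by 0.98 ± 0.12 and Cd8b1 by 0.73 ± 0.09, whereas 2 of the 12 stayed below percentile 25 on all arrays.

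Of 7 antigen presentation genes measured, limma called 0 higher and 2 lower (median 0.12). None was higher at an unadjusted p under 0.05, and the methods' t-test called 0 in either direction. H2-Eb1, a chain of the class II complex, differed by -0.55 ± 0.14 and Cd74, its invariant chain, by -0.64 ± 0.24, with overlap of the muscles for Cd74. Without TA array 1 both calls were lost and Cd74 was at -0.23. The Cd74 call was also lost without gastrocnemius array 2 or 3, and without TA array 2 its difference was -1.04. Whether cell content or gene expression within fibers lay behind the immune differences was not tested.

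Genes of the circadian clock differed in both directions. In this oscillator Clock and Arntl bind the E-box CACGTG and switch on the Per and Cry repressors and the output factors Dbp and Tef, whose peaks lie opposite to that of Arntl. Of 16 clock genes, 9 were lower in TA and 4 higher, with a median of -0.74. Neither the labels nor the methods give the time of day at sampling.

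Reference promoters of Ciart and Tef, clock genes among the 5 most separated, are given in the same form with the E-box in capitals.
Ciart: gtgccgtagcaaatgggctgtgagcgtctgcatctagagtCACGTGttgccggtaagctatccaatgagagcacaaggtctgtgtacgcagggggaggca
Tef: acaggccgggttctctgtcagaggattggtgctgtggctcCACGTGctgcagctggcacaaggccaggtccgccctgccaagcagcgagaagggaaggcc
The stretches lie at chr3:95882285-95882384 on the minus strand and chr15:81802506-81802605 on the plus strand of GRCm38.p6, and each holds 1 match. CACGTG, which reads the same on both strands, was in 7.15% of all 32851 promoters. It was found in the promoters of 5 of the 14 clock genes with an entry, and 3 of these (Ciart, Tef and Per1) were lower in TA.

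Cry2, a repressor of the clock, stood at percentile 48.0 and 48.3 in TA and at 80.4, 79.7 and 77.9 in gastrocnemius (-1.81 ± 0.09, adjusted p = 9.9e-06 by limma). Ciart, an inhibitor of Clock and Arntl, was at 61.7 and 70.9 against 90.6, 90.6 and 86.4 (-1.76 ± 0.20). Dbp was at 75.8 and 81.4 against 91.2, 92.0 and 91.5 (-1.27 ± 0.13). Both TA arrays lay below every gastrocnemius array in these genes, and in Tef (-1.16 ± 0.08) and Per3 (-0.74 ± 0.08) too.

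Further clock genes were named after their values were seen. Per2 differed by -1.31 ± 0.17 and Per1 by -0.91 ± 0.15. Arntl was at percentile 71.6 and 79.0 in TA and at 54.2, 52.7 and 54.8 in gastrocnemius (1.23 ± 0.15). Clock differed by 0.86 ± 0.11 and Nfil3, which represses Dbp targets, by 1.70 ± 0.21. The treated arrays gave a like split, with 11 of the 16 clock genes lower in TA, 5 higher and a median of -0.75.

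**Figure D3:**
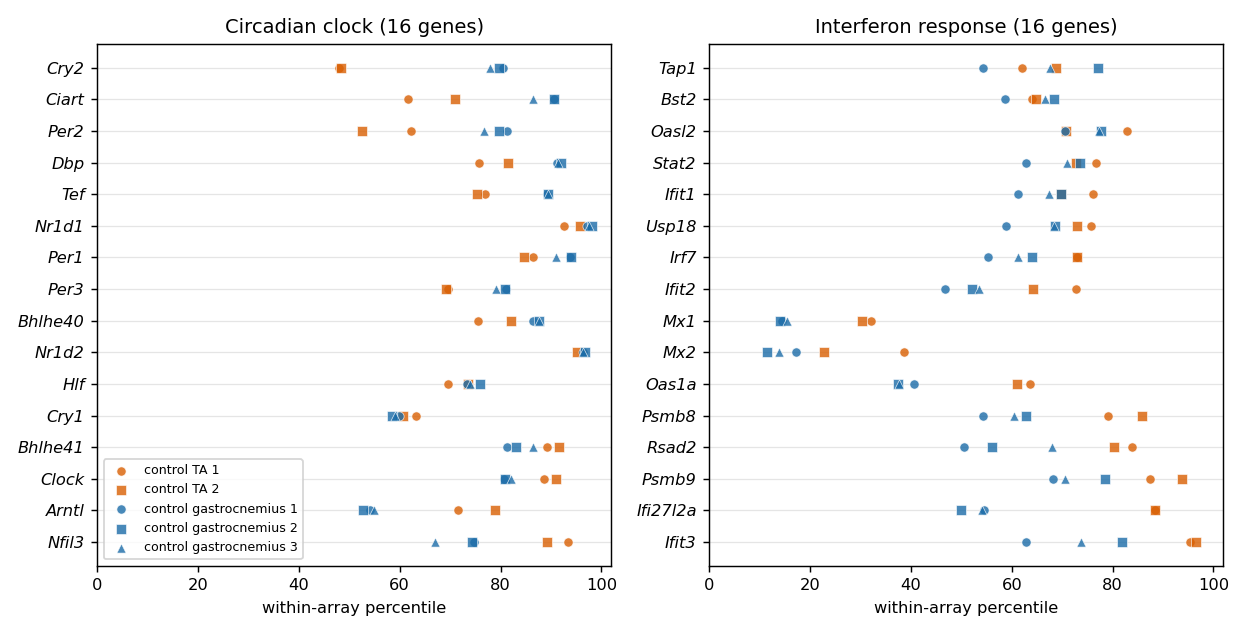
Within-array percentile (x axis) of the 16 clock genes and the 16 interferon response genes (y axis, sorted by difference) on the 5 control arrays, 1 point per array. Cry2, Ciart, Dbp and Tef are lower on both TA arrays and Arntl, Clock and Nfil3 higher, while on the right 11 genes are called higher in TA and 0 lower.

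Immediate early genes, which are induced within minutes by activity or handling, were lower in TA in 11 of 19 cases and higher in 4 (median -0.39). Nr4a1, an exercise-responsive nuclear receptor, was at percentile 89.0 and 89.5 in TA and at 98.4, 98.8 and 97.1 in gastrocnemius (-1.98 ± 0.23). Nr4a3, of the same family, was at 45.5 and 46.3 against 85.7, 83.7 and 68.2 (-1.97 ± 0.35), with -1.11 against gastrocnemius array 3 alone. Fosb differed by -1.45 ± 0.23, or -0.95 against array 3 alone, Fosl2 by -1.56 ± 0.16 and the phosphatase Dusp1 by -1.37 ± 0.27. Gastrocnemius array 3 was the lowest of its group for Nr4a1, Nr4a3, Fosb, Fosl2 and Dusp1.

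Chaperone genes were higher in 11 of 16 cases and lower in 4 (median 0.47). Dnaja1, a co-chaperone of Hsp70, was at percentile 97.8 and 97.8 in TA and at 82.5, 83.8 and 83.7 in gastrocnemius (2.40 ± 0.08, adjusted p = 4e-06 by limma). The mitochondrial pair Hspe1 and Hspd1 differed by 1.94 ± 0.09 and 0.91 ± 0.08, Hsp90b1 of the endoplasmic reticulum by 1.75 ± 0.08 and Hsp90aa1 of the cytosol by 1.44 ± 0.10. The lower ones are named after their values were seen. They were Hspb7 (-1.06 ± 0.14), Dnajb4 (-0.67 ± 0.10), Hspa5, also of the endoplasmic reticulum (-0.57 ± 0.08), and Hspb8 (-0.52 ± 0.15). On the treated arrays Hspb8 was higher in TA (0.89).

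Ribosomal protein genes were higher in 12 of the 14 listed and lower in 1 (median 0.95). Over all 67 genes with a ribosomal protein symbol, 41 were higher and 10 lower (median 0.69). Rpl13 was at percentile 98.9 and 98.8 in TA and at 86.9, 85.9 and 84.6 in gastrocnemius (2.84 ± 0.09), and Rps4x, Rpl7, Rpl4 and Rps9 differed by between 1.52 and 2.13. Proteasome genes (33 of 50 higher, 9 lower) and mitochondrial ribosomal genes (48 of 77 higher, 14 lower) were likewise mostly higher. These classes were picked by symbol after the values of single members had been seen.

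Genes of the respiratory chain were mixed: 9 of 21 were higher and 7 lower, with a median of 0.03, which turned to -0.17 when ranks were taken over all probe sets. Ndufa1, a small subunit of complex I, was at percentile 99.4 and 99.3 in TA and at 77.4, 75.3 and 74.1 in gastrocnemius (4.13 ± 0.10). Cox4i1 of complex IV differed by 2.06 ± 0.09, and Ndufa4, Ndufb8 and Ndufa9 by 1.76 ± 0.08, 1.83 ± 0.09 and 1.11 ± 0.08. Among the lower members, named after their values were seen, Sdha of complex II and Uqcrc1 of complex III each differed by -0.52 ± 0.08. Over all 43 genes with an Nduf symbol, a class also picked after values were seen, 28 were higher and 8 lower (median 0.60).

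Glycolysis and glycogen genes were lower more often than higher, 11 against 3 of the 17 measured (median -0.33). Phkg1, the catalytic subunit of phosphorylase kinase, was at percentile 92.5 and 93.9 in TA and at 98.4, 98.7 and 98.7 in gastrocnemius (-1.69 ± 0.11). Ldha, lactate dehydrogenase, and Gys1, glycogen synthase, differed by -0.95 ± 0.08 and -0.90 ± 0.07. Pgam2, the muscle phosphoglycerate mutase, and Gbe1, the glycogen branching enzyme, were higher in TA (1.26 ± 0.08 and 1.35 ± 0.12).

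Among 16 genes of fatty acid uptake and oxidation, 6 were lower and 4 higher (median -0.08), shares near those of all genes. Slc27a1, the fatty acid transporter of muscle, was at percentile 68.9 and 61.5 in TA and at 94.2, 92.8 and 93.4 in gastrocnemius (-2.43 ± 0.14), a 5.38-fold lower signal. Hadh, an enzyme of short-chain oxidation, differed by -1.81 ± 0.10. Slc25a20, the carnitine carrier of mitochondria, differed by -0.95 ± 0.09 and Hadha, of the trifunctional enzyme, by -0.73 ± 0.10. Fabp4, also on this list, was higher in TA (1.15 ± 0.14). The other higher genes, named after their values were seen, were Cd36 (0.66 ± 0.17), Acadvl (0.64 ± 0.09) and Acadl (0.60 ± 0.12).

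Position genes, which keep in adult cells a trace of where in the limb they arose, differed in both directions. Of 37 Hox genes, 12 were higher and 12 lower (32.4% each), near the background shares of 31.5% and 32.2%. Hoxa10 was at percentile 73.4 and 77.1 in TA and between 52.4 and 53.3 on the gastrocnemius arrays (1.27 ± 0.10), Hoxb1 and Hoxb5 differed by 1.27 ± 0.08 and 1.39 ± 0.09, and Hoxc11 and Hoxd4, dim on all arrays, by -1.03 ± 0.08 and -1.09 ± 0.08. The TA arises from the dorsal and the gastrocnemius from the ventral muscle mass of the limb bud.

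Outside the Hox clusters, 10 of 21 position genes were lower and 4 higher (median -0.30). Lbx1, a factor of migrating limb muscle precursors, was at 65.2 and 59.2 in TA and at 79.3, 81.4 and 80.8 in gastrocnemius (-1.16 ± 0.12). Tbx4, the hindlimb T-box factor, differed by -0.94 ± 0.10, Tbx18 by -0.86 ± 0.09 and Meis2 by -1.34 ± 0.09, while Meis1 was higher in TA (0.71 ± 0.08).

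**Figure D4:**
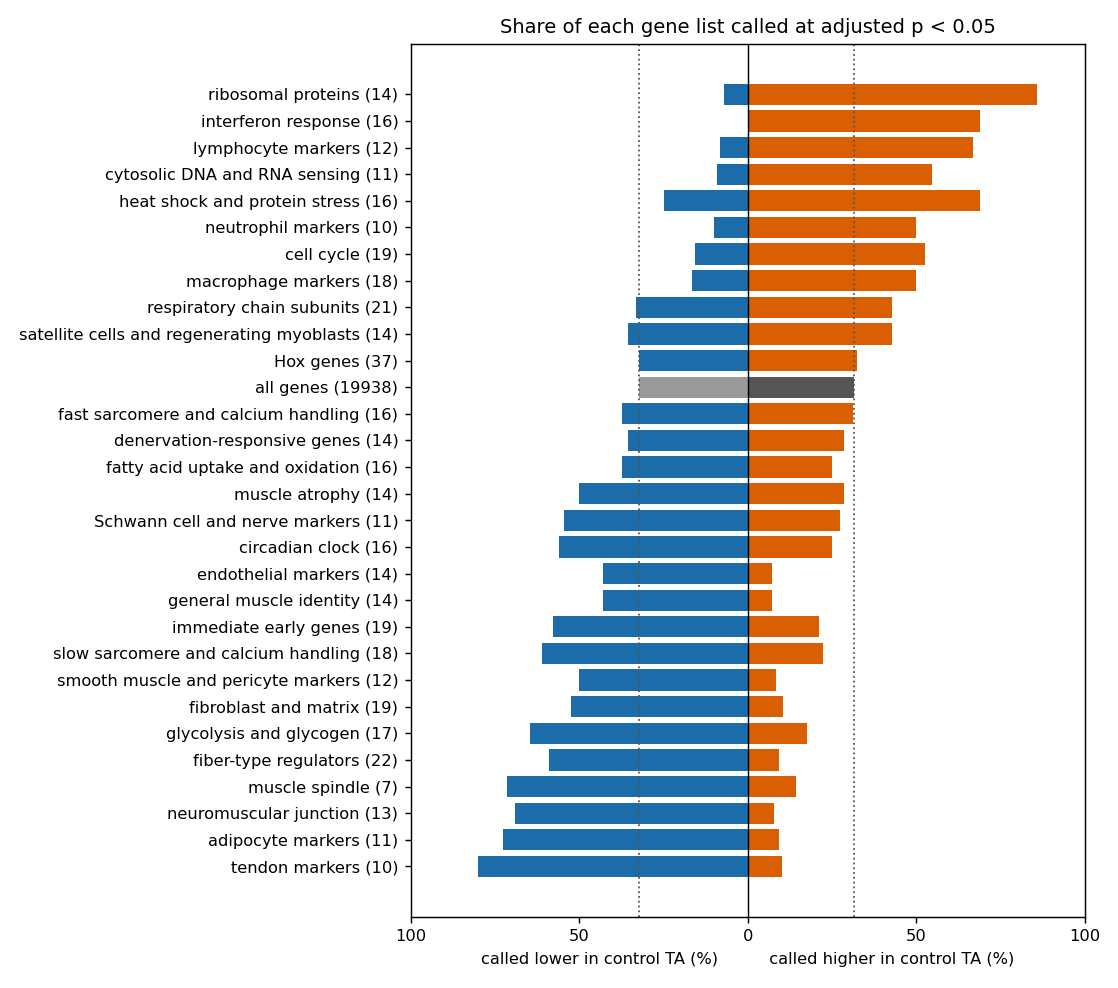
Share of each list shown (y axis, number of genes measured in brackets) called lower (left, blue) and higher (right, orange) in control TA at the adjusted threshold, in percent; gray bars and dotted lines give the shares over all 19938 genes, 32.2% lower and 31.5% higher. Among the lists shown, tendon markers lead on the left with 8 of 10 genes and ribosomal proteins on the right with 12 of 14.

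The largest differences among named genes joined several of these groups. Cox17, the copper chaperone of complex IV, stood at percentile 98.9 and 98.8 in TA and at 48.2, 41.8 and 44.5 in gastrocnemius, a 39.7-fold higher rank-matched signal (5.31 ± 0.11, adjusted p = 2.3e-06 by limma). Rps21, a ribosomal protein, followed with 4.78 ± 0.10. Gas5, a host gene of small nucleolar RNAs, was at 99.6 and 99.5 against 78.2, 73.6 and 77.2 (4.34 ± 0.11).

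Only called genes without overlap of the muscles could enter this group. Its other members higher in TA were Hypk, a partner of an acetyltransferase (4.25), Ndufa1, Tmsb10, a thymosin that binds actin (4.07), and Lsm5, of the RNA-binding ring on U6 (4.06). Rps3a1 (3.98), Micos10, of mitochondrial cristae (3.87), Ccdc58 (3.85), Cflar, an inhibitor of caspase 8 (3.82), and Ss18l2 (3.77) followed.

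At the other end, after Fmod and Myh7, came Angptl7, a secreted matrix protein, at percentile 42.3 and 56.2 in TA and at 97.5, 97.4 and 97.0 in gastrocnemius (-4.25 ± 0.20). Rny3, a small RNA of the Ro particle, and Chad both differed by -4.00. Lgi1, a secreted synaptic protein, was at 11.8 and 5.5 against 72.2, 63.8 and 72.3 (-3.44 ± 0.20), and the kinase Nuak1 was at 39.4 and 33.3 against 89.9, 91.5 and 88.9 (-3.42 ± 0.13). Slc35a4, Plekhb1, Dhdh, Scand1 and Fastk lay between -3.33 and -3.14.

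Properties of the transcripts moved with these differences. The median was 0.10 over the fifth of genes with the shortest loci and -0.12 over the fifth with the longest. Of 53 small nucleolar RNA genes, 34 were lower in TA and 11 higher (median -1.17). The labels and the methods give different RNA amounts and amplification kits, and the part of RNA preparation in any of the differences was not tested.

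**Figure D5:**
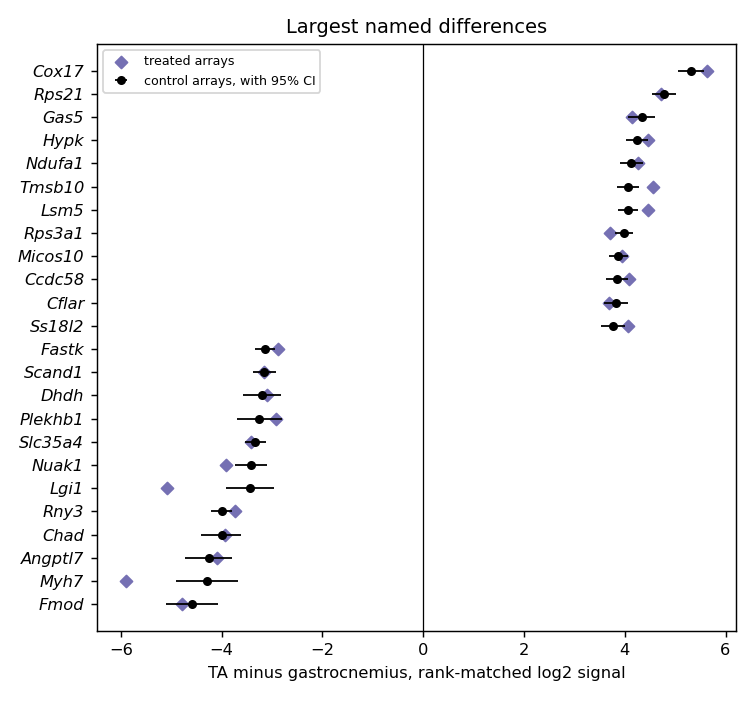
Difference in rank-matched log2 signal, TA minus gastrocnemius (x axis), for the 12 largest named differences in each direction (y axis); black points with bars give the control arrays with the 95% confidence interval of the limma fit, and purple diamonds the treated arrays, without error. All 24 genes have the same sign in both, and Myh7 is -4.29 in the controls and -5.90 in the other arrays.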

How the data were processed

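As deposited by the authors, each probe set had a log2 signal from RMA. Software versions, and whether TA and gastrocnemius arrays went through RMA together, were not stated. After RMA the signal distributions still differed by tissue, as given above. Array counts per group limit the precision. Of 35556 probe sets, 21789 carried 1 gene symbol by the platform annotation, 1621 several and 12146 none. Of those with 1 symbol, 21698 were matched by Entrez number to RefSeq of GRCm38.p6. For the 999 genes with several probe sets the brightest over all 10 arrays was used, which left 19938 genes.

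Arrays were grouped by title. Neither the labels nor the methods state that gastrocnemius arrays were separate animals, so p-values measure the spread between these arrays, which may be technical. Genes were ranked within arrays, and the 5 control arrays were quantile-normalized over genes and fitted by lmFit and eBayes of limma 3.58.1 (R 4.3.3), and p-values were adjusted by Benjamini-Hochberg, with calls at 0.05. The treated arrays were fitted in the same way. The fit was checked on simulated data. Python 3.11.15, pandas 2.3.3 and matplotlib 3.10.9 were used for tables and plots.

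Gene lists were described by counts and medians, with no test. The lists and the arrays were chosen with earlier results of these data known. Genes named were the 12 largest differences per direction (called, not overlapping, percentile 60 or more in the higher group, established names), genes whose expression the study names, and up to 5 members per list with the largest moderated statistic; others are marked in place. Small nucleolar RNAs and microRNAs were skipped. Alternatives were percentiles, normal scores, deposited and median-centred signals, ranks over all probe sets, the mean of all probe sets, leaving out genes under percentile 50, an intensity trend with a robust prior, all 10 arrays in 1 fit, a replicate block, the methods' t-test, and leaving out each array; gastrocnemius array 3 alone was added after the data were seen. A gene is not reported here.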

Additional observations from a re-analysis of the deposited data

How the results depend on the processing

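Other scales left both directions well populated, with the exception of the deposited signals, where 249 genes were higher and 19217 lower. Leaving out genes under percentile 50 gave 3453 higher and 3876 lower, from fewer genes tested, and gastrocnemius array 3 alone gave 3205 and 3330, from fewer arrays. Centring on array medians gave 8103 and 6090 and ranks over all probe sets 5267 and 7497. Leaving out each array in turn gave 5290 to 6363 higher and 5466 to 6502 lower. The share of control calls found again in the other arrays was 75.8% to 98.7% over all alternatives. Of 181 called genes named, 137 kept their call and direction in every alternative. The outcomes for named genes in this part leave out Egr3, Myl4, Kdr, Pecam1, Cdh5, Flt1, Trim63, Ctsl, Fbxo32, Cd36, Acadvl and Acadl. They also leave out Hspb7, Dnajb4, Hspa5, Hspb8, Myog, Pax3, Myf5, Mymx, Myod1 and Pax7. Within-array percentiles ended 27 calls, mostly of very bright genes, the methods' t-test (plain, after Benjamini-Hochberg adjustment 4957 higher and 5100 lower) ended 14, and gastrocnemius array 3 alone ended 23. Relative to the median gene (0.12), centring turned Atp2a1 to 0.18 and Aldoa to 0.31, neither of which was called on matched ranks. The replicate number could be shared by only 2 pairs, which deviated together weakly (r = 0.153 and 0.158); as a block it gave 5727 higher and 5897 lower, and among genes named it ended the call of Tnnc2 and added Tnnt1. RMA compresses very bright and very dim signals, so differences near either end of an array are likely understated, and ranks cannot show a change common to all genes.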

Other observations

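Genes of muscle stem cells and their progeny differed in both directions, 6 of 14 higher and 5 lower in control TA (median 0.11, with -0.03 without TA array 1, 0.26 without TA array 2 and -0.02 against gastrocnemius array 3 alone). Cdh15, the cadherin of satellite cells, was at percentile 38.8 and 39.5 in TA and at 68.4, 70.9 and 68.9 in gastrocnemius (-1.58 ± 0.09), and Calcr, which keeps satellite cells quiescent, differed by -0.98 ± 0.09. Myf6, a myogenic factor of mature fibers, differed by -1.24 ± 0.16 and the laminin receptor Itga7 by -0.68 ± 0.12. Chodl was higher in TA (1.02 ± 0.12). The other higher genes are named after their values were seen. They were Myog (1.06 ± 0.35), Pax3 (0.57 ± 0.11), Myf5 (0.57 ± 0.15), Mymx (0.45 ± 0.09) and Myod1 (0.34 ± 0.10). Myog was at percentile 71.7 on TA array 1 and at 46.8 on TA array 2. Pax7, also named after its value was seen, was not called (-0.19 ± 0.09).

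Atrophy genes were lower in 7 of 14 cases and higher in 4 (median -0.43). Among the higher, named after their values were seen, were Ctsl (0.81 ± 0.18) and Trim63 (0.49 ± 0.17). Fbxo32, named in the same way, was not called (0.28 ± 0.19). The ubiquitin ligases Fbxo30 and Fbxo40 went opposite ways, at percentile 91.0 and 91.9 in TA against 76.6, 73.7 and 75.3 for the first, and a difference of -1.36 ± 0.10 for the second. Ddit4, an inhibitor of mTOR, was at 72.8 and 73.9 in TA and at 93.4, 93.0 and 89.8 in gastrocnemius (-1.72 ± 0.16), Eif4ebp1, a repressor of translation, differed by -1.09 ± 0.10 and Bnip3, of mitophagy, by -0.68 ± 0.08. Of 14 genes that respond to denervation, 4 were higher and 5 lower (median 0.04, and -0.13 with ranks over all probe sets), among them Gadd45a, a growth arrest gene (1.41 ± 0.13), and Ncam1, the neural adhesion molecule (-1.30 ± 0.20).

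Cell cycle genes were higher in 10 of 19 cases and lower in 3 (median 0.28), at modest ranks. Birc5, survivin of dividing cells, was at percentile 59.9 and 55.6 in TA and at 24.4, 25.2 and 24.9 in gastrocnemius (1.69 ± 0.09). Rrm2 and Tyms, which make DNA precursors, differed by 1.27 ± 0.17 and 1.14 ± 0.12, and Pcna, the replication clamp, by 0.89 ± 0.10. On the treated arrays the cell cycle median was -0.10, with 5 genes higher and 6 lower. No explanation of any of these differences was tested.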
